A study of Mus musculus with 5 samples.

Results

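The zinc, iron and copper handling genes of the uterine luminal layer were followed over the start of implantation in the mouse. The members are the 38 of 23420 genes in the count table whose symbol belongs to the Slc30a or Slc39a families or is one of 14 named metallothionein, iron and copper genes. They comprise 10 zinc exporters, 14 zinc importers, 4 metallothioneins, 6 iron genes and 4 copper genes. The rule reads names only and uses no measured value. RNA was taken by laser microdissection from the luminal layer of uteri of pregnant wild-type C57BL/6N females, where day 1 is the day of the vaginal plug. On day 5 the implantation sites had been made visible with an intravenous blue dye, and on day 4 the presence of blastocysts had been checked in the other uterine horn. There were 5 libraries. The first 3 are from the mornings of day 3 and day 4 and the evening of day 4, and the other 2 from day 5 morning, 1 of the layer away from the attached embryo, labelled and here called the M pole, and 1 of the layer surrounding it, the AM pole. The study's methods describe pooling RNA of several samples into each microdissected library of another experiment, on Lif mutants, and whether that holds for these libraries, the number of animals behind each and the age of the females are not given in the sources used here.

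Zinc enters the cytoplasm through the ZIP proteins (Slc39a genes) and leaves it, for the outside or for vesicles, through the ZnT proteins (Slc30a genes), while metallothioneins bind zinc and copper inside the cell. Cells take up transferrin-bound iron through the transferrin receptor (Tfrc), store iron in ferritin made of heavy (Fth1) and light (Ftl1) chains, and release it through ferroportin (Slc40a1). Copper enters through Slc31a1 and is pumped into the secretory pathway by Atp7a and Atp7b. The luminal epithelium is the first maternal layer that the blastocyst meets, and it is lost around the embryo as implantation proceeds.

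The total counts ranged from 15334674 to 19529491 per library, and the features Rn45s, the ribosomal RNA precursor, and Lars2 together took 15% to 23.2% of them. Each condition has 1 library, so differences between conditions have no replicate check and no p-value is given. Counts up to day 4 evening are listed in the order of collection, day 3 morning, then morning and evening of day 4. Changes are differences of log2 CPM (counts scaled to 1e6 per library after scaling by the trimmed mean of M-values, TMM, with a prior count of 2), and a gene is called higher or lower when this difference lies beyond 1 in either direction, which is 2-fold. The range in brackets is the exact 95% interval (Clopper-Pearson) of the count ratio on the log2 scale, and covers counting error only and not the spread between animals. Where 1 library had 0 counts, the fold is computed with 3 counts in its place, and error in the other count is not included. Such folds are not limits of the exact interval. Levels of different genes are compared only as RPKM, which is CPM divided by the gene length in kilobases that the counting tool gave. Of the 38 members, 30 passed the filter of a mean of 1 CPM over the libraries, and 8 did not.

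The labelled tissue was checked on marker genes. All 7 epithelial markers, among them the keratins Krt8 and Krt18, were counted in every library, with a summed level of 3385 to 6588 CPM. The 8 stromal markers summed to 358 to 544 CPM, but at the AM pole Hand2 stood at 134 CPM, against 3.96 to 20.7 CPM elsewhere, and Dcn and Lum at 14.2 and 6.77 CPM, against 72.1 to 115 and 53.1 to 77.4 CPM. The AM pole library also stood apart in other markers. All 4 smooth muscle markers were highest there, with a sum of 386 CPM against 7.70 to 27.2 CPM elsewhere, of which Des made 359 CPM. The 4 endothelial markers summed to 95.2 against 9.22 to 40.2 CPM, of which Cdh5 made 72.4 CPM, while Kdr was lowest there, at 1.06 CPM, and Tek was higher at the M pole. The 5 leukocyte markers summed to 96.7 against 243 to 347 CPM, with 4 of them lowest at the AM pole and Cd68 highest there. The embryo markers Pou5f1, Nanog, Cdx2 and Gata4 were at 0 in the other 4 libraries and had 68, 10, 22 and 54 counts at the AM pole. The list of 8 embryo markers summed to 759 to 2374 CPM over the libraries, nearly all of it from Sox17, which uterine epithelium also expresses. The 3 gland markers found in the table summed to at most 8.18 CPM and were all at 0 on day 4 evening, and the 3 red blood cell markers summed to at most 1.90 CPM, with Hba-a1 and Hba-a2 at 0 throughout. The part of other cells in the differences below was not tested. In a bulk library, fewer cells of a type and less RNA per cell cannot be told apart.

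**Figure D1:**
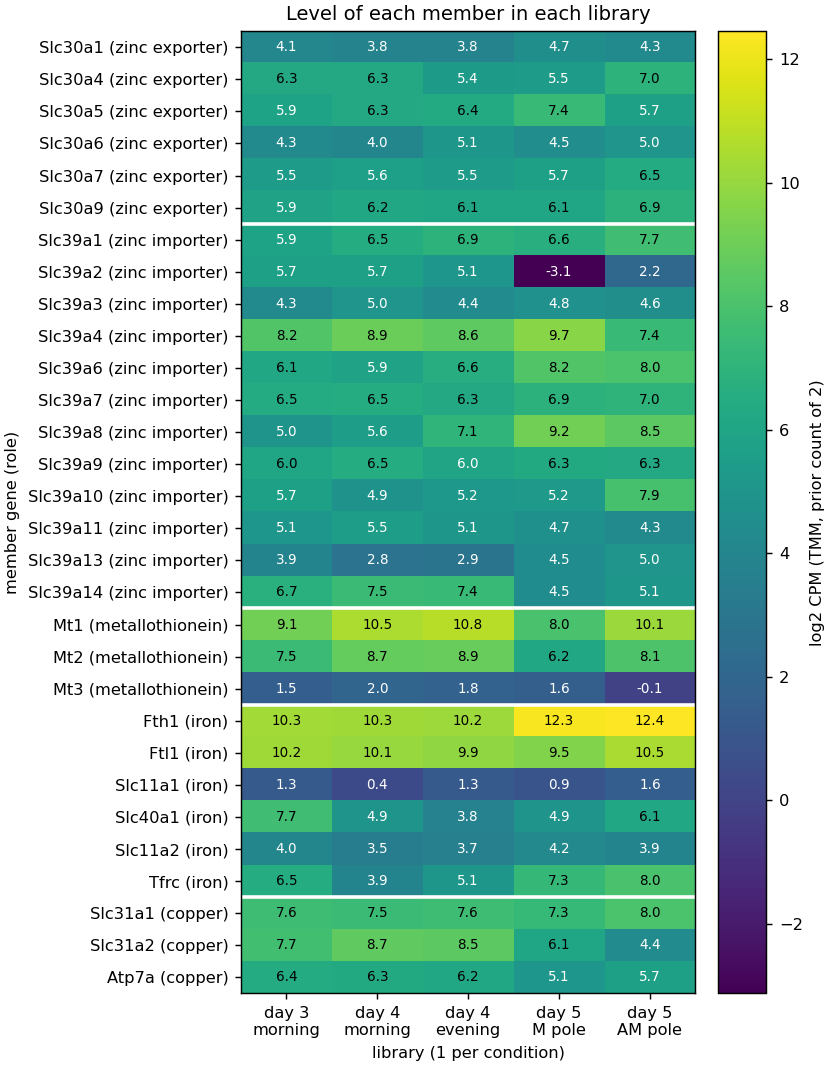
Level of the 30 members that passed the filter (rows, with role) in each of the 5 libraries (columns), as log2 CPM with TMM scaling and a prior count of 2; colour and printed number give the same value. Fth1 reached the highest level, in both day 5 libraries, and Slc39a2 lay at the bottom of the scale at the M pole, where it had 0 counts.

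Between day 4 morning and day 5 some metal-handling genes were higher and others lower. More of them were past 2-fold there than within the days before, and the same was true of all genes, with 14.6% higher and 14.5% lower at the M pole and 20.9% and 22.4% at the AM pole. In both day 5 libraries the zinc importers Slc39a8, Slc39a6 and Slc39a13, the transferrin receptor and the ferritin heavy chain were higher than on day 4 morning, and the importers Slc39a14 and Slc39a2 and the copper transporter Slc31a2 were lower. The metallothioneins Mt1 and Mt2 were 5.75-fold and 5.69-fold lower than on day 4 morning at the M pole, and within 2-fold of it at the AM pole. The importer Slc39a10 was 8.28-fold higher at the AM pole, and at the M pole 1.31-fold.

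The day 4 morning library enters 4 of the 5 comparisons, so these are not independent of each other. Between day 3 and day 4 morning, 2 of the 30 members (6.67%) were called higher and 3 (10%) lower, against 7.96% and 11.0% of the 12918 genes that passed the filter. Between day 4 morning and evening, 3 members (10%) were higher and 1 (3.33%) lower, against 7.15% and 6.96% of all genes. Both of these shares lay near those of all genes.

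Against day 4 morning, 6 members (20%) were higher and 6 (20%) lower at the M pole on day 5, beside 14.6% and 14.5% of all genes. At the AM pole 9 members (30.0%) were higher and 6 (20%) lower than on day 4 morning, beside 20.9% and 22.4% of all genes. Between the day 5 libraries, 7 members (23.3%) were higher and 4 (13.3%) lower at the AM pole than at the M pole, beside 13.7% and 14.5% of all genes. The median difference of the 30 members in these 3 comparisons was 0.05, 0.45 and 0.57, where the median over all genes was -0.01, -0.02 and -0.02. In all, 21 of the 30 members (70.0%) were past 2-fold in at least 1 of the 5 comparisons and 9 in none, beside 57.4% of all genes past 2-fold in at least 1.

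The split of calls depended on the scaling. With library totals in place of TMM, 1 member was higher and 5 lower on day 4 than on day 3 morning, and with totals without Rn45s and Lars2 the split was 2 and 5. The added falls were Slc39a10, at -1.22 and -1.08, and Slc11a1, at -1.26 and -1.13, from -0.89 and -0.95 with TMM. For all genes the same comparison gave 1028 higher and 1420 lower with TMM, 538 and 2209 with totals, and 731 and 1816 without these 2 features. At the M pole against day 4 morning, totals gave 9 members higher and 5 lower, and moved the split over all genes from 1888 and 1877 to 2690 and 1399. Between the day 5 libraries the split over all genes moved from 1768 and 1872 to 1288 and 2807 with totals, and to 1310 and 2707 without these features. Of the members, 7 were higher and 4 lower there with TMM, and 5 and 4 under both of these scalings. The lost calls were Slc40a1, at 0.84 and 0.86, and Slc39a1, at 0.71 and 0.74. No called member changed direction under any scaling.

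Among the zinc importers, 12 of 14 passed the filter. Against day 4 morning, 3 (25%) were higher and 2 (16.7%) lower at the M pole, beside 14.6% and 14.5% of all genes. At the AM pole 5 (41.7%) were higher and 4 (33.3%) lower, beside 20.9% and 22.4%. Slc39a8, which carries zinc and manganese into the cell (chromosome 3 of GRCm38/mm10, 135825491 to 135888572), had 546, 884 and 2106 counts up to day 4 evening, then 10679 at the M pole and 6345 at the AM pole. Its level was already 2.70-fold higher on day 4 evening than on that morning, a log2 difference of 1.43 [1.32, 1.55]. On day 5 the difference from day 4 morning was 3.52 [3.42, 3.62] at the M pole and 2.91 [2.81, 3.02] at the AM pole. Per length, Slc39a8 ranked 9 of the 14 importers on day 4 morning, at 13.4 RPKM, and ranked 1 at the AM pole, at 101 RPKM.

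Slc39a6, a plasma membrane importer of chromosome 18, had 1248, 1042 and 1525 counts up to day 4 evening, then 5533 at the M pole and 4481 at the AM pole. Both day 5 values lay above all 3 earlier ones, with differences from day 4 morning of 2.33 [2.24, 2.43] and 2.17 [2.08, 2.28]. Slc39a13, an importer of the Golgi and vesicles with low counts, was also highest in the day 5 libraries. It had 265, 122 and 113 counts up to day 4 evening, then 409 at the M pole and 533 at the AM pole. Its difference from day 4 morning was 1.66 [1.38, 1.98] at the M pole and 2.18 [1.91, 2.50] at the AM pole, and from day 3 to day 4 morning it was -1.12 [-1.46, -0.82].

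Slc39a10, which can pair with Slc39a6 in the plasma membrane (chromosome 1, 46807544 to 46853509), stood apart at the AM pole. It had 945, 514 and 576 counts up to day 4 evening, then 708 at the M pole and 4048 at the AM pole. The difference at the AM pole was 3.04 [2.92, 3.19] from day 4 morning and 2.66 [2.54, 2.78] from the M pole library. Slc39a1, a broadly expressed plasma membrane importer, had 1039, 1609 and 1900 counts up to day 4 evening, then 1842 at the M pole and 3456 at the AM pole. It was 1.17 [1.09, 1.26] higher at the AM pole than on day 4 morning and 1.05 [0.97, 1.13] higher than at the M pole, and the second difference was 0.71 with library totals, no longer past 2-fold. Against day 4 evening the AM pole difference was 0.75.

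Lower on day 5 was Slc39a14, which carries zinc, manganese and iron that is not bound to transferrin (chromosome 14, 70303467 to 70351424). It had 1886, 3168 and 2669 counts up to day 4 evening, then 409 at the M pole and 598 at the AM pole. The day 5 levels lay 8.14-fold below day 4 morning at the M pole, at -3.02 [-3.18, -2.88], and 5.04-fold below it at the AM pole, at -2.33 [-2.46, -2.21]. Slc39a14 and Slc39a8, which belong to the same subfamily and share substrates, thus lay on opposite sides of their day 4 morning level. Per length Slc39a14 stood at 34.1 RPKM and Slc39a8 at 13.4 RPKM on day 4 morning, and at 4.18 and 153 RPKM at the M pole.

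Slc39a2, a zinc importer known from the skin (chromosome 14, 51893610 to 51896745), had 935, 946 and 532 counts up to day 4 evening, then 0 at the M pole and 74 at the AM pole. At the M pole it was at least 331-fold lower than on day 4 morning. At the AM pole it was 12.2-fold lower than on day 4 morning and at least 27.3-fold higher than at the M pole. Slc39a11, an importer of intracellular membranes, had 597, 819 and 542 counts up to day 4 evening, then 493 at the M pole and 339 at the AM pole. Its difference from day 4 morning was -0.80 [-0.97, -0.64] at the M pole and -1.20 [-1.39, -1.02] at the AM pole, which was -0.78 against day 4 evening.

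Slc39a4, the importer that takes up dietary zinc in the gut (chromosome 15, 76612383 to 76616852), had the highest RPKM of the importers in every library but the one at the AM pole. It had 5248, 8714 and 6150 counts up to day 4 evening, then 15463 at the M pole and 2838 at the AM pole. The day 5 libraries lay at the ends of its range, and Slc39a4 was 4.93-fold lower at the AM pole than at the M pole, at -2.30 [-2.36, -2.24]. From day 4 morning the difference was 0.76 [0.72, 0.79] at the M pole, which reached 1.05 with library totals, and -1.55 [-1.61, -1.48] at the AM pole. The remaining importers that passed the filter, Slc39a3, Slc39a7 and Slc39a9, stayed within 2-fold in all 5 comparisons. Slc39a7, which releases zinc from the endoplasmic reticulum, had 1209 to 2192 counts, Slc39a9 999 to 1630 and Slc39a3 323 to 562.

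**Figure D2:**
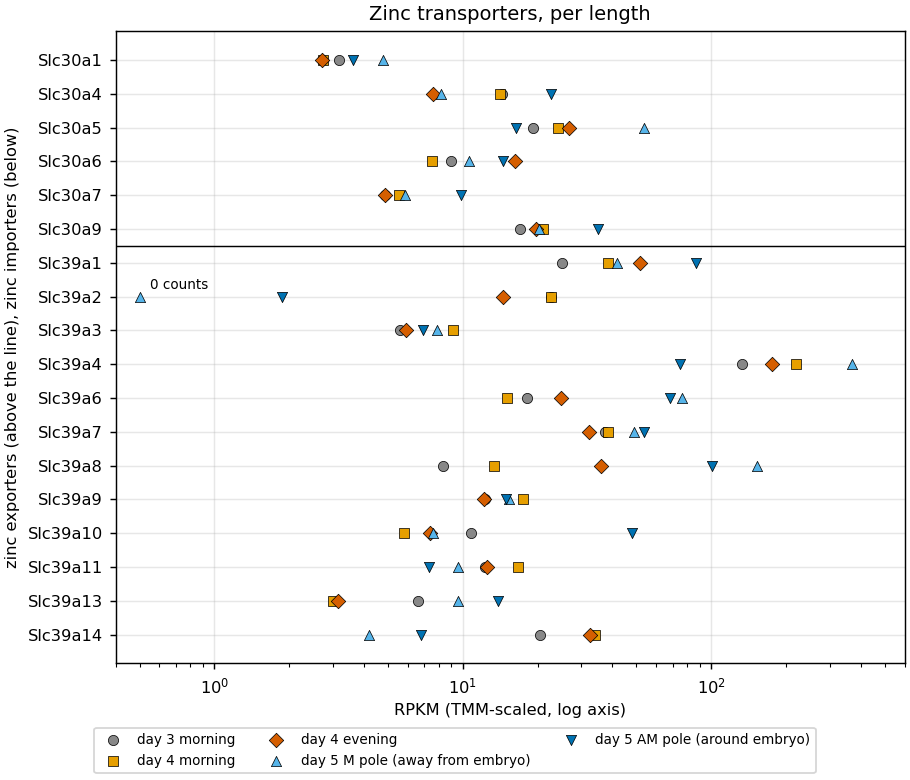
RPKM (log axis, TMM-scaled) of the 6 zinc exporters above the line and the 12 importers below it, 1 symbol per library; Slc39a2 at the M pole had 0 counts and is drawn at the left edge for that reason. Slc39a8 and Slc39a6 have both day 5 symbols on the right, Slc39a14 has both on the left, and Slc39a10 has the symbol of the AM pole library far from its other 4.

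Of the zinc exporters, 6 of 10 passed the filter. On day 4 evening 1 of the 6 (16.7%) was higher than that morning and 0 lower, beside 7.15% and 6.96% of all genes. At the M pole 1 (16.7%) was higher and 0 lower than on day 4 morning, beside 14.6% and 14.5%. Between day 3 and day 4 morning 0 were called, beside 7.96% and 11.0%. At the AM pole against day 4 morning 0 were called, beside 20.9% and 22.4%. The AM pole had 1 (16.7%) higher and 1 (16.7%) lower than the M pole, beside 13.7% and 14.5%. Slc30a5 and Slc30a6 code for a pair of proteins that work as a heterodimer in the early secretory pathway. Slc30a5 (chromosome 13, 100802648 to 100833427) had 1081, 1367 and 1346 counts up to day 4 evening, then 3192 at the M pole and 884 at the AM pole. As with Slc39a4, its highest and lowest counts were those of the day 5 libraries, which differed by -1.71 [-1.82, -1.60]. Against day 4 morning it was higher by 1.15 [1.06, 1.24] at the M pole, and against day 4 evening by 0.99. Slc30a6 had 345, 292 and 557 counts up to day 4 evening, then 431 at the M pole and 534 at the AM pole. Its only call was that between day 4 morning and evening, at 1.11 [0.91, 1.32].

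Slc30a4, an exporter that loads zinc into vesicles, had 1393, 1384 and 656 counts up to day 4 evening, then 841 at the M pole and 2103 at the AM pole. It was 2.76-fold higher at the AM pole than at the M pole, at 1.46 [1.35, 1.58], and within 2-fold in the other comparisons. Against day 4 evening the AM pole difference of Slc30a4 was 1.57. Slc30a1, the exporter of the plasma membrane, had 224 to 470 counts, Slc30a7 688 to 1506 and Slc30a9 1022 to 2020, and none of the 3 was past 2-fold in any comparison. With library totals Slc30a1 reached 1.10 at the M pole against day 4 morning, from 0.81 with TMM. Per length, Slc30a5 led the exporters in the other 4 libraries, and Slc30a9, at 34.9 RPKM, at the AM pole.

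Of the metallothioneins, Mt1 and Mt2 had the same calls in all 5 comparisons. They are neighbours on chromosome 8 (Mt1 at 94179089 to 94180327 and Mt2 at 94172618 to 94173567) with similar sequences, so reads shared between them are uncertain. Mt1 had 9906, 26355 and 27493 counts up to day 4 evening, then 4817 at the M pole and 18921 at the AM pole. Mt2 had 3196, 7681, 7272, 1419 and 4703 counts in the same order. For both genes the day 4 libraries were highest and the M pole library lowest.

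From day 3 to day 4 morning the difference was 1.40 [1.36, 1.43] for Mt1 and 1.25 [1.19, 1.31] for Mt2, which was 0.92 with library totals. From day 4 morning to day 5 at the M pole it was -2.52 [-2.57, -2.48] for Mt1 and -2.51 [-2.59, -2.43] for Mt2. At the AM pole the difference from day 4 morning was -0.41 [-0.43, -0.38] and -0.63 [-0.69, -0.58], within 2-fold. Between the day 5 libraries Mt1 was higher at the AM pole by 2.12 [2.07, 2.16] and Mt2 by 1.87 [1.79, 1.96].

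Metal response elements, the sites of the zinc-sensing factor MTF-1, were searched in the promoters of the members, and the Mt1 and Mt2 promoters are shown because these genes had the same calls and carry several cores. The windows hold 250 bases before and 50 after the RefSeq start of the gene on GRCm38.p6, both on the plus strand, at chr8:94178839-94179138 for Mt1 and chr8:94172368-94172667 for Mt2. Capitals mark the element cores TGCACNC and TGCGCNC on either strand.
Mt1: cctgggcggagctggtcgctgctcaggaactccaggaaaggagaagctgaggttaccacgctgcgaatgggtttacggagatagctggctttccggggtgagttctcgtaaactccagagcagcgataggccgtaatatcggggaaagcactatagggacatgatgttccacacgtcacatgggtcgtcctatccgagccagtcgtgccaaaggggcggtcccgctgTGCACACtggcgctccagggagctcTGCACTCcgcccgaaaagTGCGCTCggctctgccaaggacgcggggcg
Mt2: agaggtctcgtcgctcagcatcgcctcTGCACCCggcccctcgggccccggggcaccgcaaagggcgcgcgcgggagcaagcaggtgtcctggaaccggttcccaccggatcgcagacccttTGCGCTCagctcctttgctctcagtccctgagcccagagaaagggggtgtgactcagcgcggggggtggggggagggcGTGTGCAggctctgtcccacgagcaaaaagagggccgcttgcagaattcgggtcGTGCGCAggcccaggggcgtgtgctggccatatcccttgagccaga
Counted from the first base of the gene as 1, the Mt1 cores begin at -23, 3 and 21 and those of Mt2 at -223, -128, -50 and 5. For Mt1 GENCODE vM21 lists starts at 94179082, just before the start used, and at 94179211 and 94179241, 122 and 152 bases after it. Both later starts lie beyond the end of the window and put all 3 cores upstream, and the bases just before them were not searched. For Mt2 GENCODE vM21 lists 94172664, which is 46 bases after the start used and puts all 4 cores upstream, and 94172860, beyond the window. At least 1 core, overlapping matches counted separately, lay in 25.7% of the 32851 promoters of the reference table, at least 3 in 1.97% and at least 4 in 0.517%. For 32 members 39 promoters were found, and 20 of the 39, from 19 genes, held at least 1 core. At least 3 cores lay in 4 of them, those of Mt1, Mt2, Slc30a4 and Slc30a10, and at least 4 in that of Mt2. The Stat site TTCNNNGAA lay in 8.30% of all promoters and, among the members, in 1 promoter of Slc39a10. A match of letters is a description and not a binding site. Mtf1 itself had 317, 439 and 345 counts up to day 4 evening, then 767 at the M pole and 853 at the AM pole, where the difference from day 4 morning was 0.73 [0.56, 0.91] and 1.03 [0.86, 1.20].

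The iron genes were led by Tfrc, the receptor for transferrin (chromosome 16, 32608896 to 32632794). It had 1627, 260 and 556 counts up to day 4 evening, then 2867 at the M pole and 4232 at the AM pole. The level on day 4 morning was the lowest of the 5, 6.33-fold below day 3 morning, with a difference of -2.65 [-2.86, -2.47]. From there Tfrc was 1.27 [1.06, 1.5] higher by day 4 evening, 3.38 [3.21, 3.58] higher at the M pole and 4.09 [3.92, 4.28] higher at the AM pole, the last a 17.1-fold difference. The day 5 libraries were thus also above day 3 morning in counts.

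Slc40a1, the iron exporter ferroportin (chromosome 1, 45908070 to 45925594), had 3666, 542 and 214 counts up to day 4 evening, then 578 at the M pole and 1183 at the AM pole. It was 6.84-fold lower on day 4 than on day 3 morning, at -2.77 [-2.91, -2.64], and lower again on day 4 evening, at -1.15 [-1.39, -0.93]. At the M pole it had a difference of 0.02 [-0.15, 0.19] from day 4 morning, and of 1.17 from day 4 evening, and at the AM pole one of 1.20 [1.05, 1.35]. At the AM pole it was 1.17 [1.03, 1.32] higher than at the M pole, and 0.84 higher with library totals, within 2-fold. Tfrc and Slc40a1 thus both lay lower on day 4 than on day 3 morning, while from day 4 morning to evening Tfrc was higher and Slc40a1 lower.

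The ferritin chains differed from each other. Fth1 (chromosome 19, 9980600 to 9985111) had 21705, 21753 and 18016 counts up to day 4 evening, then 93915 at the M pole and 94887 at the AM pole. It was 4.11-fold higher than on day 4 morning at the M pole, at 2.04 [2.02, 2.06], and 4.59-fold higher at the AM pole, at 2.20 [2.18, 2.22]. Ftl1 (chromosome 7, 45457944 to 45459886) had 21283, 19223 and 14616 counts up to day 4 evening, then 13840 at the M pole and 24338 at the AM pole, and it stayed within 2-fold in all 5 comparisons. Per length Ftl1 stood above Fth1 on day 4 morning, at 1110 against 806 RPKM, and below it in both day 5 libraries, at 760 against 3311 RPKM at the M pole. Both chains have processed copies elsewhere in the genome, so reads shared with them are uncertain. The metal-ion transporter Slc11a2 had 201 to 348 counts and was within 2-fold throughout with TMM, while its difference at the M pole from day 4 morning, 0.71, was 1.01 with library totals. Slc11a1, which is known from macrophages, had 21 to 48 counts and was called once, at 1.19 [0.50, 2.08] at the AM pole against day 4 morning, and this difference was 0.26 against day 4 evening. Cd68, a marker of macrophages, was highest in the same library, at 39.4 CPM against at most 17.4 CPM elsewhere, while the other 4 leukocyte markers were lowest there, and their part in the difference was not tested.

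**Figure D3:**
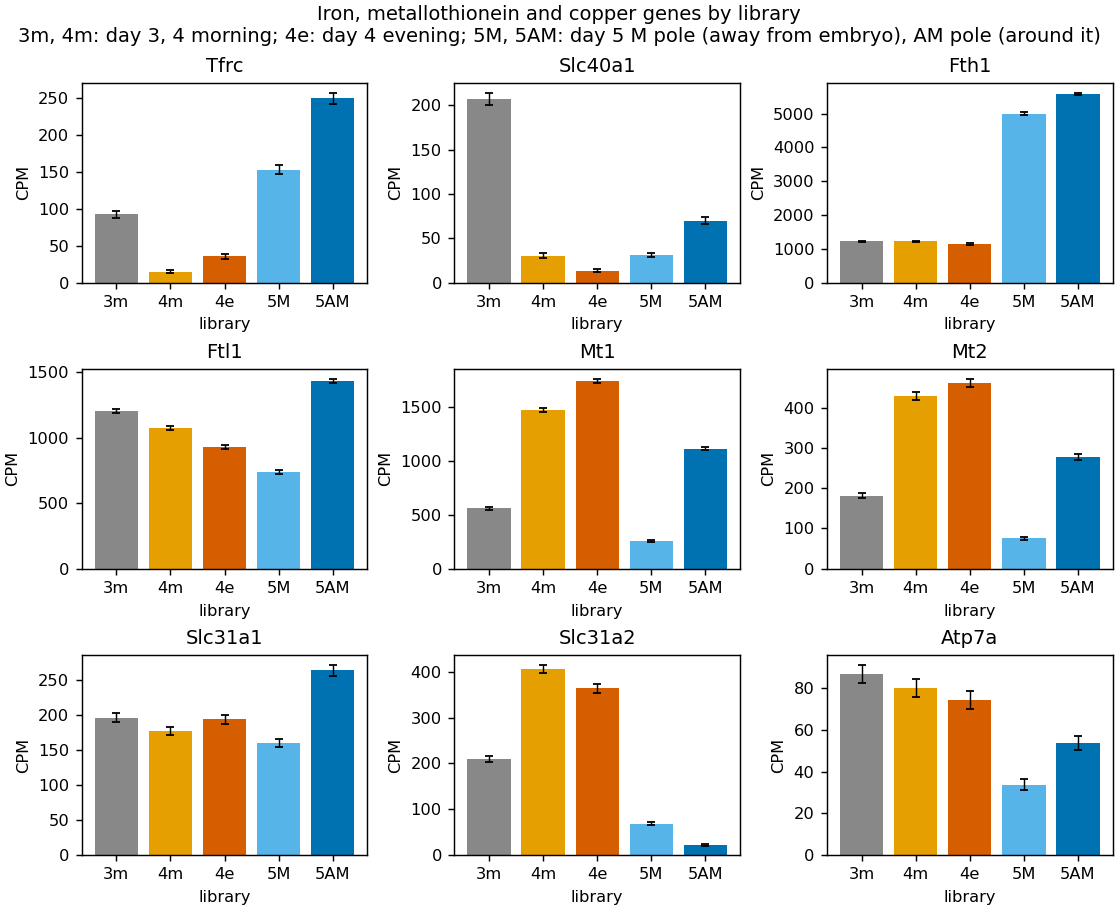
TMM-scaled CPM (y axis, from 0) of 9 iron, metallothionein and copper genes in the 5 libraries (x axis), with bars for single libraries and error lines for the exact 95% Poisson interval of the count. Tfrc is lowest on day 4 morning, Slc40a1 is highest on day 3 morning, Fth1 separates the day 5 libraries from the others, and Mt1 and Mt2 are lowest at the M pole.

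Messenger RNAs of several iron genes carry iron-responsive elements, hairpins bound by the iron regulatory proteins, which hold back translation from the 5′ untranslated region and stabilise the message from the 3′ untranslated region. The sites are shown because they lie in the genes of iron uptake, release and storage described above. They were searched in GENCODE vM21 transcripts as a C, 5 bases, the loop CAGTGN and 5 bases that pair with the first 5, a pattern chosen after the counts had been seen. Capitals mark the loop, and the coordinates are those of GRCm38.
Fth1, 5′ region, chr19:9982738-9982754, plus strand: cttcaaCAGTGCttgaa
Ftl1, 5′ region, chr7:45459785-45459801, minus strand: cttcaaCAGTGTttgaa
Slc40a1, 5′ region, chr1:45925471-45925487, minus strand: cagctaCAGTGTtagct
Tfrc, 3′ region, chr16:32631225-32631241, plus strand: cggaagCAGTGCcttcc
Tfrc, 3′ region, chr16:32631604-32631620, plus strand: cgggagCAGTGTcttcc
Tfrc, 3′ region, chr16:32631669-32631685, plus strand: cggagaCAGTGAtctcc
Tfrc, 3′ region, chr16:32631716-32631732, plus strand: cgggaaCAGTGTttccc
Such a site lay in the 5′ region of 0.128% and the 3′ region of 0.581% of 21875 protein-coding genes, and in 4 of the 38 members. The pattern requires this loop and pairing of all 5 bases, so elements of another form would be missed. A member without a match, such as Slc11a2, may still carry an element. Of the iron regulatory proteins themselves, Ireb2 had 1523 to 1741 counts. Aco1 had 1162, 1563 and 1869 counts up to day 4 evening, then 1377 at the M pole and 760 at the AM pole, where its difference from day 4 morning was -0.97 [-1.09, -0.84]. Neither was past 2-fold in the 5 comparisons, but the highest and lowest levels of Aco1, 119 CPM on day 4 evening and 44.7 CPM at the AM pole, lay more than 2-fold apart.

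For copper, Slc31a1, the high-affinity importer (chromosome 4, 62360701 to 62391769), had 3464, 3158 and 3048 counts up to day 4 evening, then 3000 at the M pole and 4483 at the AM pole, and stayed within 2-fold. Slc31a2, a related transporter of endosomes and lysosomes (chromosome 4, 62286445 to 62298411), had 3719, 7272 and 5745 counts up to day 4 evening, then 1273 at the M pole and 349 at the AM pole. It was 6.00-fold below day 4 morning at the M pole, at -2.58 [-2.67, -2.50], and 19.8-fold below it at the AM pole, at -4.30 [-4.47, -4.15]. The day 5 libraries differed by -1.72 [-1.90, -1.55]. Per length Slc31a2 stood above Slc31a1 on day 4 morning, at 223 against 47.2 RPKM, and below it at the AM pole, at 11.3 against 70.5 RPKM.

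Atp7a, the copper pump of the secretory pathway (chromosome X, 106027276 to 106128160), had 1537, 1432 and 1172 counts up to day 4 evening, then 631 at the M pole and 911 at the AM pole. Its difference from day 4 morning was -1.25 [-1.39, -1.12] at the M pole, which was -0.95 with library totals, and -0.58 [-0.70, -0.46] at the AM pole. Atp7b, the related pump known from the liver, had 0 to 6 counts per library and did not pass the filter.

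**Figure D4:**
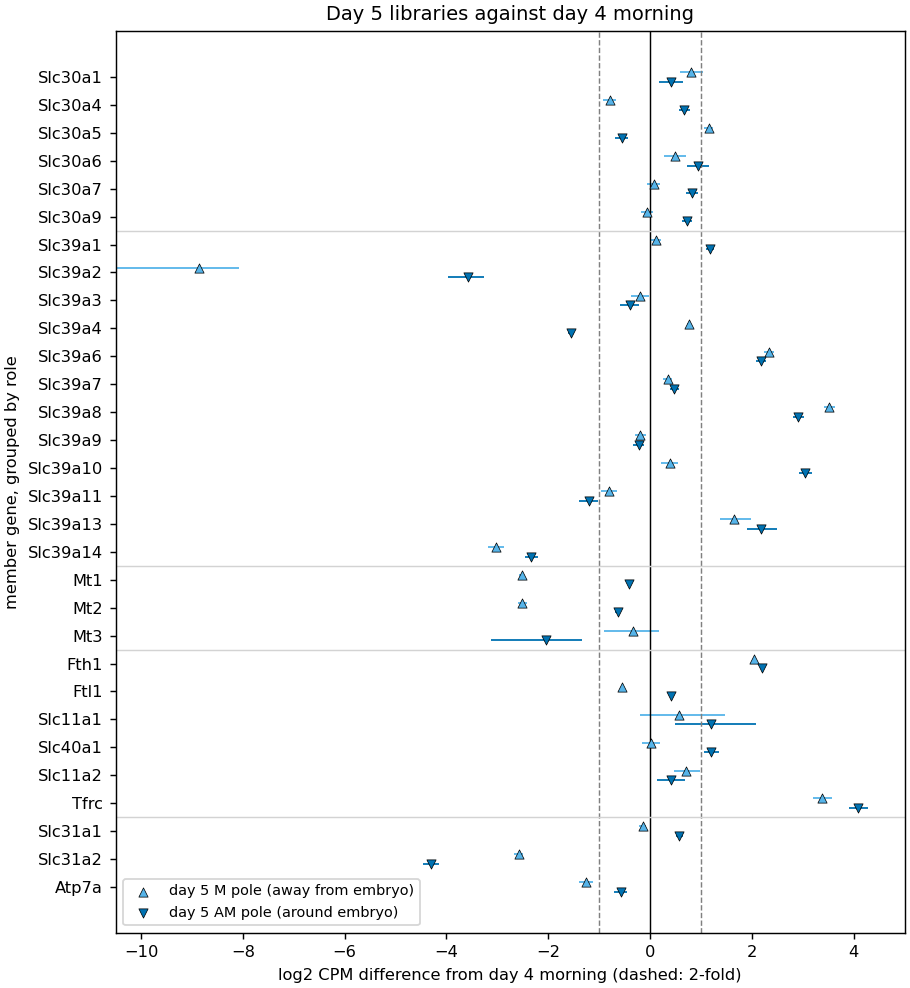
Difference of log2 CPM from day 4 morning (x axis) for the 30 members that passed the filter (y axis, grouped by role), with a point for each day 5 library and lines for the exact 95% interval of the count ratio; dashed lines mark 2-fold, and the interval of Slc39a2 at the M pole is open to the left. Slc39a4 and Slc30a5 lie on the right at the M pole and on the left at the AM pole, and Mt1 and Mt2 are beyond 2-fold only at the M pole.

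The 8 members below the filter are, beside Atp7b, the exporters Slc30a2, Slc30a3, Slc30a8 and Slc30a10, the importers Slc39a5 and Slc39a12, and Mt4. Slc30a8, the zinc transporter of insulin granules, and Slc30a10, a manganese exporter, had 0 counts in all 5 libraries, under the floor of 3 counts in each. Slc39a5 had 4 to 10 counts. Mt4, a metallothionein of stratified epithelia, had 43 counts at the AM pole and 0 elsewhere. With 3 counts in place of 0, Mt4 was 15.8-fold higher there than at the M pole. The interval of this log2 difference began at 3.62. Slc30a2 had 38 counts at the AM pole and 0 to 3 elsewhere, Slc30a3 6 and 0, and Slc39a12 2 and 0. Like Mt4, Slc30a3 and Slc39a12, the embryo markers Pou5f1, Nanog, Cdx2 and Gata4 were counted at the AM pole only. The smooth muscle markers were highest there, as was Slc30a2. Whether Mt4, Slc30a2, Slc30a3 and Slc39a12 came from other cells was not tested. Mt3, a metallothionein known from the brain, passed the filter with 48 to 67 counts in 4 libraries and 14 at the AM pole, at -2.04 [-3.13, -1.34] from day 4 morning.

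Other genes of metal handling were described from a list of 50, of which 47 were in the table and 37 passed the filter. On day 4 against day 3 morning 3 of these (8.11%) were higher and 6 (16.2%) lower, beside 7.96% and 11.0% of all genes. On day 4 evening against morning 5 (13.5%) were higher and 2 (5.41%) lower, beside 7.15% and 6.96%. Against day 4 morning 11 (29.7%) were higher and 5 (13.5%) lower at the M pole, beside 14.6% and 14.5%, and 11 (29.7%) higher and 8 (21.6%) lower at the AM pole, beside 20.9% and 22.4%. The AM pole had 8 (21.6%) higher and 6 (16.2%) lower than the M pole, beside 13.7% and 14.5%.

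Hephl1, a ferroxidase related to hephaestin, had 0, 0 and 2 counts up to day 4 evening. It then had 14 at the M pole and 343 at the AM pole. Its log2 difference of 7.47 at the AM pole from day 4 morning depends on the prior count, as day 4 morning had 0 counts. This was the largest value of the list, and its interval also covers the 6.96 of Lcn2. It was at least 120-fold higher at the AM pole than on day 4 morning and 27.1-fold higher than at the M pole. Cybrd1, a ferric reductase of the duodenum, had 29, 78 and 88 counts up to day 4 evening, then 3726 at the M pole and 3379 at the AM pole, 45.5-fold and 45.6-fold above day 4 morning. Cp, the ferroxidase ceruloplasmin, had 486, 383 and 771 counts up to day 4 evening, then 4766 at the M pole and 487 at the AM pole. It was 11.8-fold above day 4 morning at the M pole and 1.34-fold at the AM pole, and 8.86-fold lower at the AM pole than at the M pole. Steap4, a metalloreductase, had 18, 34 and 71 counts up to day 4 evening, then 435 at the M pole and 1932 at the AM pole, and differed between the day 5 libraries by 2.29 [2.14, 2.45]. At the AM pole it was 59.8-fold above day 4 morning. Steap1, of the same family, had 389, 18 and 21 counts up to day 4 evening, then 201 at the M pole and 539 at the AM pole, 31.5-fold above day 4 morning in the last library.

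Hmox1, the heme oxygenase that frees iron from heme, had 203, 266 and 479 counts up to day 4 evening, then 749 at the M pole and 10967 at the AM pole. It was 16.2-fold higher at the AM pole than at the M pole, at 4.01 [3.91, 4.12]. Slc48a1, a heme transporter, had 1655, 1137 and 810 counts up to day 4 evening, then 2112 at the M pole and 448 at the AM pole, a difference between the day 5 libraries of -2.09 [-2.24, -1.95]. Ccs, the copper chaperone of superoxide dismutase, had 334 counts at the M pole and 130 at the AM pole, at -1.20 [-1.52, -0.92]. The hepcidin gene Hamp, whose product closes ferroportin, had 23 counts at the AM pole and 0 in the other 4 libraries.

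Lcn2 codes for a protein that binds iron-loaded siderophores. It had 481, 58 and 305 counts up to day 4 evening, then 1135 at the M pole and 7123 at the AM pole. Its difference from day 4 morning was 4.17 [3.84, 4.63] at the M pole and 6.96 [6.64, 7.41], or 129-fold, at the AM pole, and between the day 5 libraries it was 2.79 [2.70, 2.89]. Ltf, which codes for the estrogen-induced lactoferrin, had 6232, 932 and 186 counts up to day 4 evening, then 281 at the M pole and 874 at the AM pole. At the M pole it differed from day 4 morning by -1.79 [-2.0, -1.61]. Trf, the gene of transferrin, had 109 to 147 counts and was within 2-fold throughout. Scara5, a ferritin receptor, had 267, 593 and 896 counts up to day 4 evening, then 6 at the M pole and 24 at the AM pole, 104-fold and 23.5-fold below day 4 morning. Ncoa4, which delivers ferritin to lysosomes for breakdown, had 354, 656 and 283 counts up to day 4 evening, then 234 at the M pole and 202 at the AM pole, and differed from day 4 morning by -1.55 [-1.78, -1.34] at the M pole.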

How the data were processed

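RNA-seq of the luminal layer was read from 1 table of counts. The authors deposited whole-number read counts for 23420 genes, with the gene length and coordinates of their counting tool and without normalization. Per the study's methods and the submitters' processing notes, laser-dissected tissue was amplified with SMART-seq v.4, aligned with HISAT2 to GRCm38/mm10 and counted with featureCounts of Subread 2.0.0. The methods state that RNA of 3 samples was pooled for each microdissected library of the Lif mutant experiment, and whether this covers the wild-type libraries is not stated. The annotation, the strand setting and the handling of reads with several alignments are not given in the sources used here, so reads of overlapping or near-identical genes cannot be assigned with certainty.

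Python 3.11.15 with pandas 2.3.3, numpy 2.4.6 and scipy 1.17.1 was used. A mean CPM of 1 or more on library totals was required, which 12918 genes met, and TMM factors (edgeR 4.0.16, R 4.3.3) were computed on them. Log2 CPM carries a prior count of 2, and differences beyond 1 were called. With 1 library per group no test was run. The steps were tested on simulated data with counting error only, which do not cover variation between animals or libraries. Alternatives were library totals, DESeq2 1.42.0 size factors, totals without Rn45s and Lars2, a prior count of 0.5, no filter, a mean of at least 5 CPM, a log2 limit of 2 and, added after the data had been seen, day 4 evening as the reference for day 5.

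The total counts of 15334674 to 19529491 put the floor of 3 counts at 0.160 to 0.190 CPM. Members were named by role, with counts in all libraries for those that had a mean of at least 10 CPM and a call, or that define their role. Of the other listed genes, named were the 3 largest rises and falls at the M pole against day 4 morning and between the day 5 libraries among genes that were called and averaged 10 CPM or more, and Ltf, Lcn2 and Trf. Mtf1, Ireb2, Aco1, Hamp, Hephl1 and Steap1 were named after their values had been seen. The members and lists were chosen with earlier results of these data known. Promoters came from RefSeq (GRCm38.p6), and plots used matplotlib 3.10.9.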

Additional observations from a re-analysis of the deposited data

Results flagged for a closer look

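Slc39a4 and Slc30a5 lay on opposite sides of their day 4 morning level in the day 5 libraries. For Slc39a4 the log2 difference was 0.76 at the M pole and -1.55 at the AM pole, and for Slc30a5 it was 1.15 at the M pole and -0.56 at the AM pole. Slc30a4 (-0.79 and 0.68), Ftl1 (-0.55 and 0.41), Slc31a1 (-0.15 and 0.58) and Slc30a9 (-0.06 and 0.72) also lay below day 4 morning at the M pole and above it at the AM pole, without passing 2-fold in either. With 1 library per place the difference between the places was not tested.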

How the results depend on the processing

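No paired analysis was possible because each group has 1 library, and for the same reason no replicate could be left out. No called member changed direction under any scaling, prior count or reference tried. Of the 47 member calls over the 5 comparisons, 47 remained with DESeq2 size factors and with a prior count of 0.5, 43 with library totals and 45 with totals without Rn45s and Lars2. Of 27 calls on day 5 against day 4 morning, 23 remained against day 4 evening. Those lost were Slc30a5 at the M pole at 0.99 and, at the AM pole, Slc39a1 at 0.75, Slc39a11 at -0.78 and Slc11a1 at 0.26. Those gained were Slc40a1 at 1.17 and Slc39a4 at 1.08 at the M pole and Slc30a4 at 1.57 and Slc30a7 at 1.02 at the AM pole.

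Library totals moved the median of all genes to -0.29 (day 4 against day 3 morning), 0.05 (day 4 evening against morning), 0.28 (M pole against day 4 morning), -0.06 (AM pole against day 4 morning) and -0.36 (AM against M pole), and the median of the members on day 4 against day 3 morning to -0.31. Calls on day 4 against day 3 morning were then 1 member higher and 5 lower, 538 genes higher and 2209 lower and 1 listed gene higher, and 1 listed gene was lower on day 4 evening. Without Rn45s and Lars2 the medians were -0.14, 0.13, -0.18 and -0.33 over all genes (day 4 evening excepted) and -0.16 over the members on day 4 against day 3, with 5 members lower, and 13 listed genes were lower at the AM pole than on day 4 morning. DESeq2 size factors put the median of all genes at 0.02 on day 4 against day 3, at 0.01 for the AM pole against day 4 morning and at -0.00 between the day 5 libraries.

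Without a filter, 1757 genes were higher and 2315 lower on day 4 against day 3 (median -0.00), 1926 and 1656 on day 4 evening with 4 listed genes lower, 4352 higher at the AM pole than on day 4 morning, and 3170 genes and 12 members higher at the AM than at the M pole (median 0.00). With a mean of at least 5 CPM, 618 genes were higher and 834 lower on day 4 against day 3 (median 0.05), 544 and 478 on day 4 evening, and 1225 lower at the AM than at the M pole. A limit of 2 left on day 4 against day 3 morning 0 members higher, 154 genes higher and 520 lower and 0 listed genes higher. On day 4 evening it left 0 members in either direction, 305 genes higher and 178 lower and 1 listed gene in each. At the M pole against day 4 morning, 733 genes were higher and 755 lower, with 7 and 1 listed genes. At the AM pole against day 4 morning it left 1356 and 1281 genes, with 2 listed genes lower. Between the AM and M poles, 3 members were higher and 1 lower, 768 and 622 genes, and 4 and 2 listed genes. Fewer genes tested or a higher limit make these counts smaller by construction, and the cause of the other shifts was not tested. Depth limits most the members with under 100 counts in every library, Mt3, Mt4, Slc11a1, Atp7b, Slc30a2, Slc30a3, Slc39a5 and Slc39a12, and Slc30a8 and Slc30a10 at 0.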
